A study of Homo sapiens with 3 samples.

Results

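Activins, TGF-beta and bone morphogenetic proteins (BMPs) are secreted growth factors of one superfamily, and 10 genes of their signaling pathway were followed here in macrophages activated with imiquimod (IMQ). The genes were 7 ligands (INHBA, BMP6, BMP2, GDF15, TGFB1, TGFB2, and TGFB3), the receptor TGFBR1, and the intracellular inhibitors SMAD7 and SKIL. They were chosen by gene name from the 43317 gene names on the array, and all of them were found, each with 1 probe. Every one of the 10 probes passed the scanner software's background test on each of the 3 arrays, so no member was lost to a filter on dim signal.

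The RNA came from THP-1, a human monocytic leukemia cell line that had been turned into macrophage-like cells with the phorbol ester PMA (100 ng/ml) and rested overnight. Ctrl cells received nothing further, IMQ cells received IMQ, which activates toll-like receptors, and IMQ+X cells received a pretreatment before IMQ, with 4 h given as the time for every array. X was read as DMD, a benzenoid from the fungus Antrodia cinnamomea, because the treatment protocol names no compound but DMD, IMQ, and PMA. Doses are not in the labels, the general methods of the study describe a longer incubation with IMQ than the labels, and each condition was 1 array on the same slide, so no difference below has a replicate or a p-value.

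The scanner software rated between 66.6% and 72.0% of probes well above background on each array. Of 8 monocyte and macrophage markers, 6 were analysed here, and all of these were well above background on every array, with a summed normalized intensity of 626334 in Ctrl, 530388 in IMQ, and 513801 in IMQ+X. Markers of T cells (3 of 3) and B cells (3 of 3) were also above background, with sums between 528 and 598 and between 3800 and 4671, as were 2 of 3 keratinocyte markers (sums over all 3 between 106 and 164) and 2 of 3 fibroblast markers (sums between 120.0 and 145). THP-1 is a single cell line, so these signals do not measure such cells, and their source was not tested. In RNA from whole cultures, fewer cells that express a gene and less RNA of that gene per cell cannot be told apart.

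The ligands of this superfamily assemble pairs of serine/threonine kinase receptors, and the activated type I receptor phosphorylates SMAD proteins that enter the nucleus and regulate genes. TGF-beta and activin share one set of SMAD proteins, and BMPs use another. Inhibitors such as SMAD7 and SKIL are themselves target genes of the pathway and restrain it, and macrophages are known as a source of both TGF-beta and activin A.

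Intensities in this text are the quantile-normalized values of the authors, on a linear scale without unit, and differences between arrays were taken on the log2 scale. Each intensity is the fluorescence bound to a probe of 60 bases, and since probes bind with different strength, the level of a gene was not set against that of another gene. The probes of 3 genes are shown here as the stretches that were measured, INHBA and SKIL for their large differences and TGFB1 for its split position in the genome. INHBA is given with 58 of its 60 bases, and the capitals mark a stop codon in the frame read from base 2.
INHBA probe, chr7:41729246-41729305 (hg19, minus strand): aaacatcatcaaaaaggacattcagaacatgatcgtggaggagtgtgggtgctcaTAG
TGFB1 probe, chr19:41838142-41847802 (hg19, minus strand): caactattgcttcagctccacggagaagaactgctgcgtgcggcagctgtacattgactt
SKIL probe, chr3:170110094-170110153 (hg19, plus strand): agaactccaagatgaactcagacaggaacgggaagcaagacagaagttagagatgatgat
The coordinates are those of the array design. For TGFB1 they span 9661 bases, more than the probe is long, so its 60 bases do not lie in one block of the genome. The exons of the probes were not assigned.

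The 250 bases before the start site of INHBA, BMP6, and SKIL, which had the largest differences after IMQ, are shown next from RefSeq (GRCh38.p14). The capitals mark the CRE variant TGANGTCA, the CCAAT box, and the SMAD box CAGAC on either strand.
INHBA, chr7:41703091-41703340, minus strand: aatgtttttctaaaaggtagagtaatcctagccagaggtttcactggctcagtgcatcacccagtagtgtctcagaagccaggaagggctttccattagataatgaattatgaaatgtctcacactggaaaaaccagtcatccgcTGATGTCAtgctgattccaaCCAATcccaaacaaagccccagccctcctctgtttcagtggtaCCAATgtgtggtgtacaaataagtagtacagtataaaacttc
BMP6, chr6:7725849-7726098, plus strand: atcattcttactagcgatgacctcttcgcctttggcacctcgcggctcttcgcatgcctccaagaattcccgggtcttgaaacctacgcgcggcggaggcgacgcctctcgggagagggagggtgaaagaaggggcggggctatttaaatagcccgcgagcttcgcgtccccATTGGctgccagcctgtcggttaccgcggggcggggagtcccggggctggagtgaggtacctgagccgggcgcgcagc
SKIL, chr3:170357465-170357714, plus strand: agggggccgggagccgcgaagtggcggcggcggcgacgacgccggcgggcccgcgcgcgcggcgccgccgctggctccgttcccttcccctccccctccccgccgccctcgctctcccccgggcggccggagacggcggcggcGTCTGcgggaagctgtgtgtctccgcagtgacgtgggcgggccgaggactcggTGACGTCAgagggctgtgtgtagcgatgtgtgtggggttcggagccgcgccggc
The INHBA window held the CRE variant as TGATGTCA from position -105 to -98 and CCAAT boxes that start at positions -85 and -42. In the SKIL window TGACGTCA lay from -54 to -47, with a SMAD box from -107 to -103, and in the BMP6 window the only capitals are a CCAAT box on the opposite strand from -78 to -74. Of the 9 members with such a window, INHBA and SKIL held the CRE variant (2), 4 held a CCAAT box, and 6 held a SMAD box. Of 35097 windows of the same length, 6.87% held the CRE variant, 32.0% a CCAAT box, and 38.0% a SMAD box. The AP-1 motif TGANTCA was in 0 of the 9 members and in 6.57% of all windows. The NF-kB-like letters, GGG and CC with any 5 bases between them, were in 6 members, BMP6 among them, and in 54.4% of all windows, and the GC box GGGCGG was in 5 members and in 42.6%. These 2 motifs are not in capitals, and in BMP6 they overlap at positions -46 and -45. A match is a description of the letters only, and TGFB3, SMAD7, and TGFBR1 have several windows, of which any could give the match. BMP2 had no window in the table used.

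**Figure D1:**
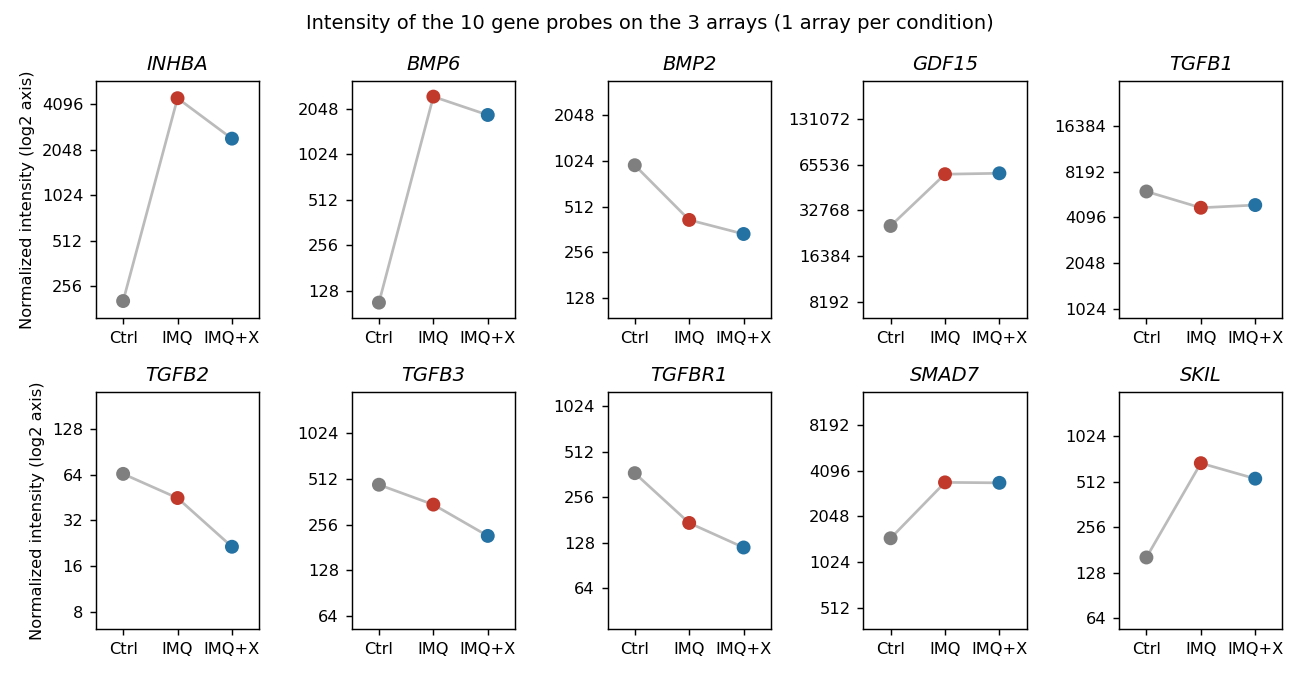
Normalized intensity of the probe of each of the 10 genes on the Ctrl, IMQ, and IMQ+X arrays, 1 point per array, on a log2 axis that covers the same number of doublings in every panel. INHBA and BMP6 go from 205 and 107 in Ctrl to 4470.4 and 2455 after IMQ, while BMP2, TGFB2, TGFB3, and TGFBR1 go down at both steps.

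Compared with Ctrl, 5 of the 10 genes were at least 2-fold higher after IMQ (INHBA, BMP6, SKIL, SMAD7, and GDF15) and 2 were at least 2-fold lower (BMP2 and TGFBR1). Of all 41107 probes compared, 4.31% were at least 2-fold higher and 3.48% at least 2-fold lower. More than 2 technical SDs, which come from the spread of repeated spots within an array, separated the arrays for 9 of the 10 genes and for 40.3% of all compared probes. The median log2 difference of the 10 genes was 0.39, against -0.01 for all probes. The genes were listed with earlier results of these arrays in view, so these counts describe them and are no test. With scaling to spike-in controls, which moves the median of all probes to -0.44, the split was 3 higher and 3 lower, since GDF15 and SMAD7 went below 2-fold and TGFB2 reached it. Of all compared probes, 1.89% were higher and 13% lower with this scaling.

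INHBA encodes the subunit of activin A, a dimeric ligand that macrophages release on activation. Its normalized intensity was 205 in Ctrl, 4470.4 in IMQ, and 2418 in IMQ+X, so both treated arrays stood far above Ctrl and the IMQ+X array lay below the IMQ array. IMQ against Ctrl was a 21.8-fold difference (log2 4.45), which is reached by 40 of the 41107 compared probes, INHBA included. The technical SD of such a difference, taken from the spread of repeated spots of like brightness, was 0.11. IMQ+X against IMQ was a log2 difference of -0.89, or 1.85-fold lower, which missed the 2-fold threshold but exceeded 2 technical SDs (0.13). The call depended on the scaling, since scaling to the 75th percentile gave -1.02, which passes 2-fold, and spike-in scaling gave -0.99. Compared with Ctrl, IMQ+X was still 11.8-fold higher (log2 3.56).

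INHBA was the only member printed in 10 spots on each array, which gives a direct view of the spread within an array. The processed signal of the spots, before normalization between arrays, ran from 219 to 271 in Ctrl, with a mean of 248 ± 16.2 (SD over 10 spots of 1 array). On the IMQ array it ran from 3987 to 4448 (mean 4178 ± 165), and on the IMQ+X array from 1941 to 2182 (mean 2094 ± 67.4). The 3 sets of spots did not overlap. A lack of overlap was common among probes with 10 spots, more often as lower than as higher signal. For IMQ against Ctrl, with 292 compared, all spots were higher for 32 such probes and all lower for 204. For IMQ+X against IMQ these were 11 and 96, and for IMQ+X against Ctrl, with 294 compared, 29 and 224. These spot signals are not normalized between arrays, and without normalization the median log2 difference of all probes for IMQ against Ctrl was -0.51. The counts thus also hold differences in brightness between arrays. With normalized values, INHBA had the largest difference of IMQ against Ctrl among the 292 compared probes with 10 spots. For IMQ+X against IMQ, 6 probes including INHBA were as low. Spots of 1 array share the RNA and the hybridization, so their spread says nothing on the spread between cultures.

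**Figure D2:**
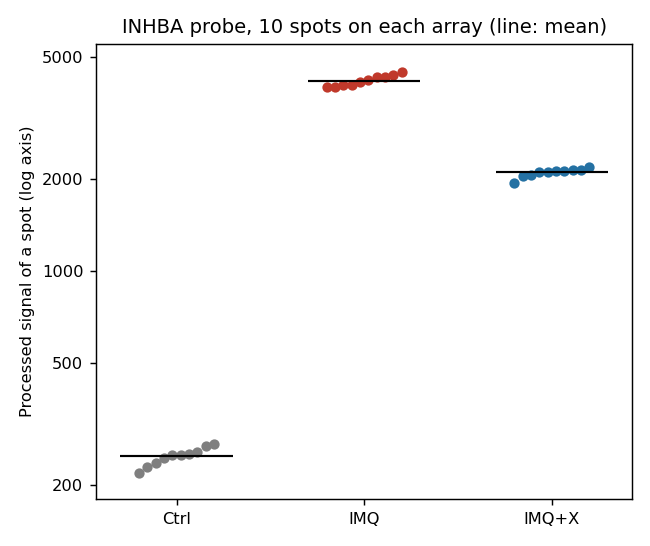
Processed signal of the 10 spots of the INHBA probe on each array, on a log axis, with the mean as a line. The spots lie between 219 and 271 in Ctrl, 3987 and 4448 after IMQ, and 1941 and 2182 after IMQ+X, with no overlap. Such a gap was common among probes with 10 spots in these signals without normalization, more often as lower than as higher signal.

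BMP6, a BMP known best as the signal that raises hepcidin in iron balance, had an intensity of 107 in Ctrl, 2455 after IMQ, and 1858 after IMQ+X. It was dim in Ctrl and bright on both other arrays. IMQ against Ctrl was a 22.9-fold difference (log2 4.52), the largest of the 10 genes with 5 of the 6 normalizations tried, including that of the authors, and 38 of the compared probes reached it. IMQ+X was 1.32-fold lower than IMQ (log2 -0.40), beyond 2 technical SDs (0.13), and 17.3-fold higher than Ctrl (log2 4.11).

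BMP2, a ligand with roles in bone and vessel formation, went the other way from BMP6. Its intensity was 961 in Ctrl, 419 in IMQ, and 338 in IMQ+X, the highest value being that of Ctrl. The difference of IMQ against Ctrl was 2.30-fold lower (log2 -1.20), and IMQ+X was 2.84-fold lower than Ctrl (log2 -1.51). Between IMQ+X and IMQ the log2 difference was -0.31, with 2 technical SDs at 0.19.

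GDF15, a distant member of the superfamily that cells release under stress, had an intensity of 25894 in Ctrl, 56862 after IMQ, and 57646 after IMQ+X. IMQ was 2.20-fold higher than Ctrl (log2 1.13), and IMQ+X differed from IMQ by 0.02, within 2 technical SDs (0.12). The sign of the latter depended on the scaling, with -0.06 under spike-in scaling. No spot was saturated. The GDF15 spots were more uneven than 92.0% to 97.2% of spots of like brightness on their arrays, and the part of this in the values was not tested.

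The 3 TGF-beta genes were all lower after IMQ than in Ctrl, but by less than 2-fold with the normalization of the authors. TGFB1, the main TGF-beta of leukocytes, had an intensity of 6080.0 in Ctrl, 4749 after IMQ, and 4947 after IMQ+X. The log2 difference of IMQ against Ctrl was -0.36, beyond 2 technical SDs (0.13), and that of IMQ+X against IMQ was 0.06, within them. Spike-in scaling turned the latter to -0.06.

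TGFB3, the TGF-beta with a known role in palate formation, had an intensity of 470 in Ctrl, 347 after IMQ, and 216 after IMQ+X, which is a step down at each treatment. IMQ against Ctrl was a log2 difference of -0.44, and IMQ+X against IMQ was -0.69, each beyond 2 technical SDs (0.17 and 0.25). IMQ+X was 2.18-fold lower than Ctrl (log2 -1.12), or -0.91 with normexp.

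TGFB2, another TGF-beta with roles in development, gave a dim signal whose values carry a wide error. Its intensity was 64.9 in Ctrl, 45.003 in IMQ, and 21.5 in IMQ+X, where the lowest value of any probe well above background was 16.9. IMQ against Ctrl was a log2 difference of -0.53, within 2 technical SDs (0.64), and IMQ+X against Ctrl was -1.60, beyond them (1.36), but -0.55 with normexp background correction. TGFB2 was the 1 member at least 2-fold lower in IMQ+X than in IMQ (2.10-fold, log2 -1.07). This difference was within 2 technical SDs as computed (1.42). The IMQ+X value fell between the bins of brightness and took the SD of dimmer spots (0.66), not of brighter ones (0.27). Whether -1.07 exceeds the noise of spots of its own brightness was thus not settled. It was under 2-fold with normexp (-0.35), with spike-in scaling (-0.67), and with scaling to the 75th percentile (-0.70).

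TGFBR1 encodes the type I receptor kinase that TGF-beta uses. Its intensity was 369 in Ctrl, 173 in IMQ, and 119 in IMQ+X, so that Ctrl was the highest array and IMQ+X the lowest. IMQ against Ctrl was 2.13-fold lower (log2 -1.09), and IMQ+X against Ctrl 3.10-fold lower (log2 -1.63). The step from IMQ to IMQ+X was -0.54, with 2 technical SDs at 0.39. It was within them with spike-in scaling (-0.32) and with scaling to the 75th percentile (-0.34). With normexp the difference of IMQ against Ctrl was -0.88 and no longer 2-fold.

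SMAD7 blocks the receptors from inside the cell and recruits ubiquitin ligases to them. Its intensity was 1471 in Ctrl, 3439 in IMQ, and 3415 in IMQ+X. IMQ was 2.34-fold higher than Ctrl (log2 1.23), and IMQ+X differed from IMQ by -0.01, within 2 technical SDs (0.13). SMAD7 and GDF15 thus stood at nearly the same value on both IMQ arrays.

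SKIL encodes SnoN, a corepressor that binds SMAD complexes in the nucleus. Its intensity was 161 in Ctrl, 677 in IMQ, and 535 in IMQ+X. IMQ was 4.19-fold higher than Ctrl (log2 2.07), and 341 of the compared probes differed by as much or more in this direction. IMQ+X was 1.27-fold lower than IMQ (log2 -0.34, 2 technical SDs 0.17) and 3.31-fold higher than Ctrl (log2 1.73).

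**Figure D3:**
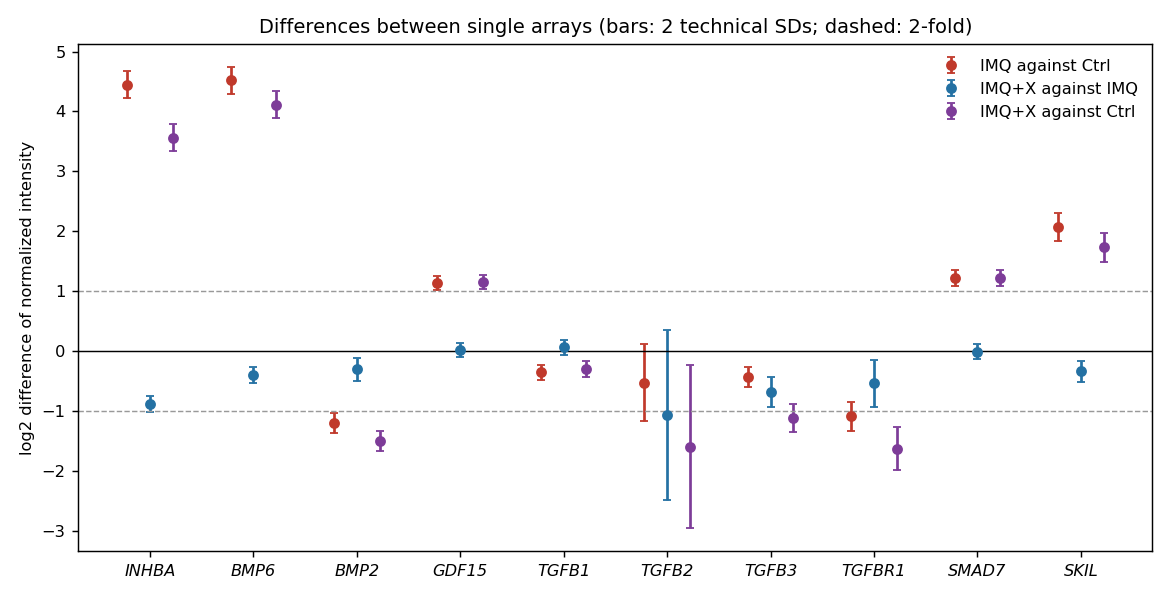
log2 difference of normalized intensity for each of the 10 genes in the 3 comparisons, with bars of 2 technical SDs from repeated spots and dashed lines at 2-fold. INHBA and BMP6 stand near 4.5 for IMQ against Ctrl, and every difference of IMQ+X against IMQ lies between -1.07 and 0.06.

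For IMQ+X against IMQ, 0 of the 10 genes were at least 2-fold higher and 1 was at least 2-fold lower, beside 1.09% and 1.31% of 40829 compared probes. The lower one was TGFB2, whereas with scaling to the 75th percentile it was INHBA. In all, 8 of the 10 genes were lower by any amount in IMQ+X than in IMQ, beside 51.3% of all compared probes. More than 2 technical SDs separated the arrays for 6 of the 10, beside 24.1% of all compared probes, and the median log2 difference was -0.37 against -0.01 for all probes. The 6 were INHBA, TGFB3, TGFBR1, BMP6, SKIL, and BMP2. TGFBR1 was within the limit with spike-in scaling (-0.32 against 0.39), and the limit for TGFB2 rested on the SD of dimmer spots. The 6 include 3 genes that were higher after IMQ than in Ctrl and 3 that were lower. The same IMQ array enters this comparison and the one with Ctrl, so the direction of a gene in the pair of comparisons is not independent.

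For IMQ+X against Ctrl, 5 genes were at least 2-fold higher and 4 at least 2-fold lower, beside 3.09% and 4.91% of 43692 compared probes. The 5 were INHBA, BMP6, SKIL, SMAD7, and GDF15, and the 4 were TGFBR1, TGFB2, BMP2, and TGFB3. By any amount, 5 of the 10 were lower, beside 46.3% of all compared probes, and 10 of 10 differed by more than 2 technical SDs, beside 40.4%. The median log2 difference was 0.43, against 0.04 for all probes. With spike-in scaling 3 were higher and 4 lower, beside 1.78% and 8.8% of all compared probes. With normexp 5 were higher and 2 lower, beside 646 and 982 of all probes.

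**Figure D4:**
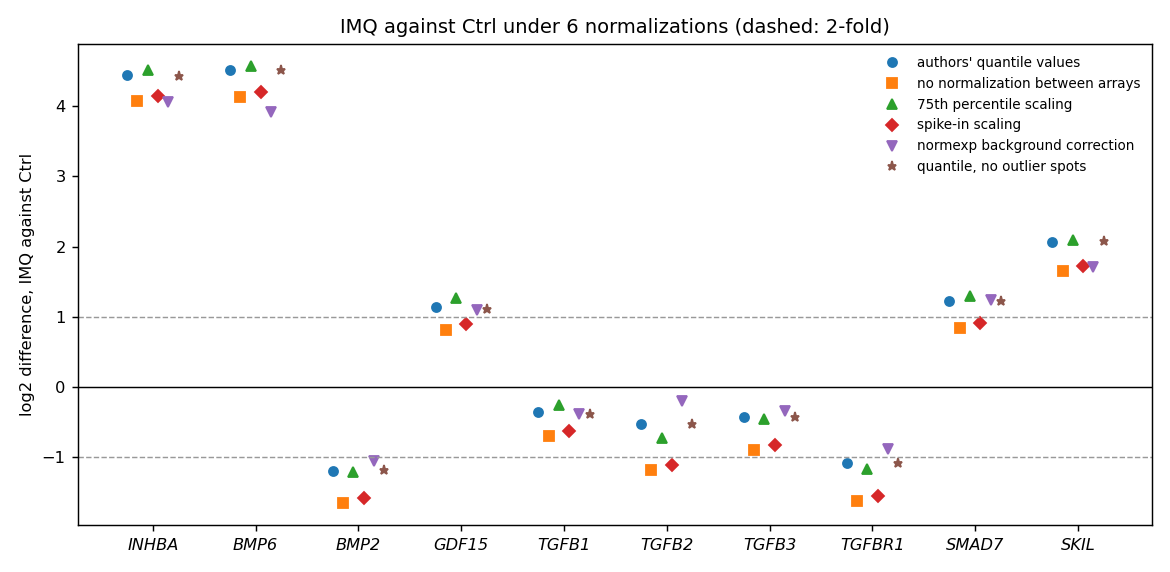
log2 difference of IMQ against Ctrl for each gene under the normalization of the authors and 5 alternatives, with dashed lines at 2-fold. INHBA and BMP6 stay between 3.92 and 4.58, and the signs of all 10 genes are the same under these normalizations.

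The rest of the pathway was read from 7 lists with 102 genes, with the brightest probe (by mean log2 value) standing for each gene. Of these genes, 84 were measured above background on every array, and 9 were on no array. For IMQ against Ctrl, 17 of 88 compared genes were higher by 2-fold or more (19.3%) and 4 were at least 2-fold lower (4.55%), against the 4.31% and 3.48% of all probes. Spike-in scaling gave 11 higher and 10 lower, where 1.89% and 13% of all probes were called. For IMQ+X against IMQ, 0 of 89 were at least 2-fold higher and 4 were at least 2-fold lower (4.49%), against 1.09% and 1.31% of all probes. With spike-in scaling these were 2 and 2, where 4.01% and 0.542% of all probes were called. For IMQ+X against Ctrl, 15 of 93 were higher (16.1%) and 8 lower (8.60%), against 3.09% and 4.91% of all probes. With spike-in scaling these were 10 and 12, where 1.78% and 8.8% of all probes were called. With the mean of all probes of a gene, 14 were higher and 3 lower for IMQ against Ctrl. For IMQ+X against IMQ these were 0 and 4, and for IMQ+X against Ctrl 12 and 8.

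Of 26 other ligands, 18 were compared between IMQ and Ctrl, and 1 was higher and 1 lower after IMQ. INHBB, which encodes the subunit of activin B, had an intensity of 18.1 in Ctrl (not well above background), 72.6 after IMQ, and 22.4 after IMQ+X. The IMQ array was 4.02-fold above this dim Ctrl value, and the gene was 3.24-fold lower after IMQ+X than after IMQ (2 technical SDs 1.42 on the log2 scale, log2 difference -1.70). BMP4 had an intensity of 116 in Ctrl and was not well above background on either IMQ array, which makes it at least 4.87-fold lower after IMQ and at least 6.85-fold lower after IMQ+X.

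Of the other receptors, 15 were compared after IMQ, with 1 higher and 2 lower. TGFBR2, the partner of TGFBR1 in the TGF-beta receptor, had an intensity of 8678 in Ctrl, 3935 after IMQ, and 3532 after IMQ+X. It was 2.21-fold lower after IMQ, although another TGFBR2 probe differed by only -0.51 on the log2 scale. The co-receptor TGFBR3 was 3.31-fold lower after IMQ (log2 -1.73), with intensities of 215, 64.9, and 47.1 in Ctrl, IMQ, and IMQ+X. The 3 classes of TGF-beta receptor (TGFBR1, TGFBR2, and TGFBR3) were thus each lower on both IMQ arrays than in Ctrl. ACVR1C, an activin and nodal receptor, was 2.48-fold higher after IMQ, and its other probes differed by 0.55 and 0.90. ACVR1 and ACVRL1, type I receptors for BMPs, had log2 differences of 1.04 and -1.03 between IMQ+X and Ctrl. The probes of ACVR1 straddled 2-fold, since after IMQ the one used differed from Ctrl by 0.94 and the other by 1.03, and after IMQ+X the other differed by 0.92.

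Of the 7 other SMAD proteins, none was 2-fold different between IMQ and Ctrl or between IMQ+X and IMQ. SMAD3, which carries the TGF-beta and activin signal, had an intensity of 1385 in Ctrl, 864 after IMQ, and 691 after IMQ+X, which is 2.003-fold lower in IMQ+X than in Ctrl. SMAD4, the partner of all receptor-activated SMAD proteins, had log2 differences of 0.44 for IMQ against Ctrl and -0.07 for IMQ+X against IMQ, and its other probe gave 0.07 and -0.24.

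Among 11 compared extracellular antagonists, 3 were at least 2-fold higher after IMQ and 0 were lower. FSTL3, which binds activin, had an intensity of 173 in Ctrl, 1222 after IMQ, and 730 after IMQ+X. It was thus 7.07-fold higher after IMQ (log2 2.82) and lower in IMQ+X than in IMQ (log2 -0.74). BAMBI, a decoy receptor without a kinase, was 4.27-fold higher after IMQ (log2 2.09) and not lower after IMQ+X (log2 difference from IMQ 0.27). CHRDL1, a BMP antagonist, was 3.04-fold higher after IMQ. FST, the activin antagonist follistatin, was 2.62-fold lower in IMQ+X than in IMQ (log2 -1.39), just within 2 technical SDs as computed (1.42). That limit used the SD of dimmer spots (0.66) for the IMQ+X array, not of brighter ones (0.27). Whether -1.39 exceeds the noise at its own brightness was thus not settled. SOST, another BMP and Wnt antagonist, passed 2-fold only for IMQ+X against Ctrl (log2 1.01, 2 technical SDs 1.42, with the same SD of dimmer spots).

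Among 10 compared genes of TGF-beta latency and activation, 4 were higher and 1 lower after IMQ. LRRC32 encodes GARP, which tethers latent TGF-beta to the cell surface, and its intensity was 34.7 in Ctrl, 355 in IMQ, and 255 in IMQ+X. This is 10.2-fold higher after IMQ (log2 3.35). NRROS, which encodes the related tether of myeloid cells, had 1206 in Ctrl, 584 after IMQ, and 558 after IMQ+X, a log2 difference of -1.05 after IMQ. The integrin chains ITGB8 and ITGAV, which together release TGF-beta from latency, were 6.61-fold and 2.05-fold higher after IMQ. ITGB8 was then 2.13-fold lower in IMQ+X than in IMQ (log2 -1.09), while ITGAV differed by -0.04. THBS1, encoding thrombospondin-1, was 2.97-fold higher after IMQ, with 1.23 on the log2 scale for its other probe. LTBP2 passed 2-fold only for IMQ+X against Ctrl, with a log2 difference of -1.004.

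Among 13 intracellular inhibitors and ubiquitin ligases, 4 were at least 2-fold higher after IMQ and 0 were lower. PMEPA1, which sequesters receptor-activated SMAD proteins, had an intensity of 63.1 in Ctrl, 534 after IMQ, and 254 after IMQ+X. It was 8.47-fold higher after IMQ (log2 3.08, with 4.998 for its other probe) and 2.11-fold lower in IMQ+X than in IMQ (log2 -1.07, with -1.53 for its other probe). SMURF2 and NEDD4L, ubiquitin ligases that SMAD7 recruits, were 2.72-fold and 2.02-fold higher after IMQ, although a further NEDD4L probe differed by 0.24. TGIF1, a corepressor, was 2.23-fold higher after IMQ, with 0.39 on the log2 scale for its other probe.

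Among 14 compared SMAD target genes, 4 were at least 2-fold higher after IMQ and 0 were lower. SNAI1, a repressor of epithelial genes, had an intensity of 838 in Ctrl, 7104 after IMQ, and 4701 after IMQ+X, which is 8.48-fold higher after IMQ. KLF10 was 3.47-fold, JUNB 2.75-fold, and CDKN1A 2.44-fold higher after IMQ, and all of these also answer to other signals. ID1, a classical target of BMPs, had 715 in Ctrl, 386 after IMQ, and 249 after IMQ+X, and was 2.87-fold lower in IMQ+X than in Ctrl (log2 -1.52).

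**Figure D5:**
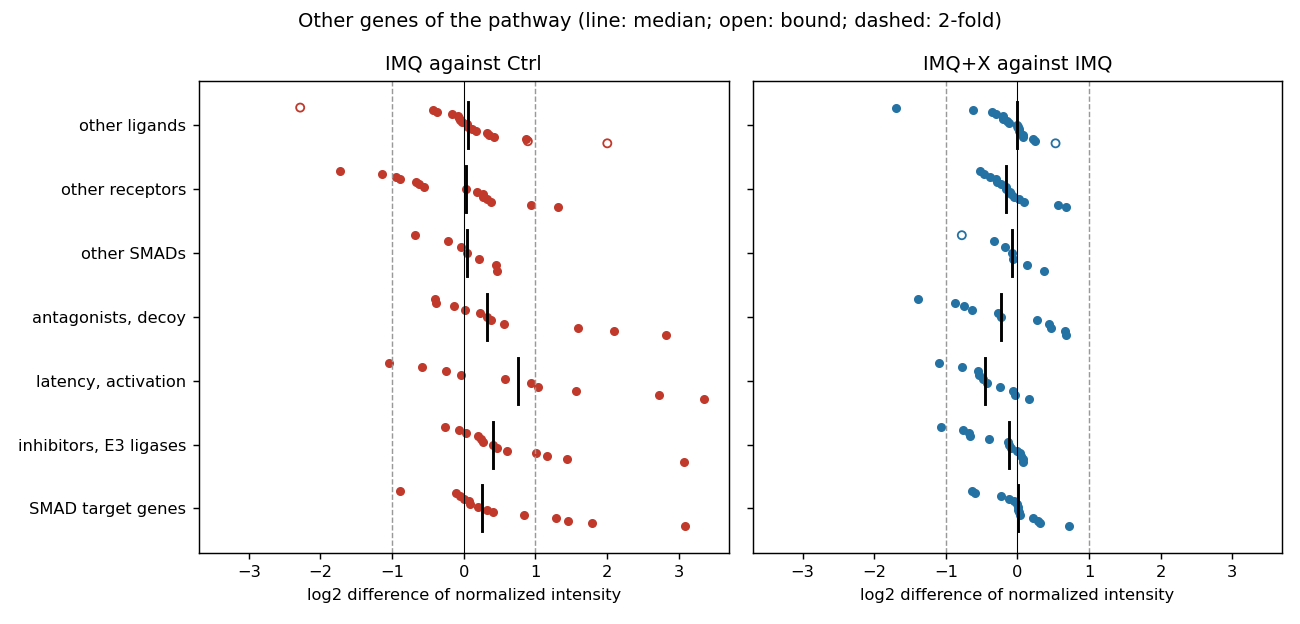
log2 difference of normalized intensity for the other genes of the pathway by list, for IMQ against Ctrl and for IMQ+X against IMQ, with the median of each list as a line and dashed lines at 2-fold. Open points (bounds) are genes not well above background on the dimmer array. For IMQ against Ctrl the list of latency and activation genes has the highest median (0.75), and for IMQ+X against IMQ no point passes 2-fold upward.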

How the data were processed

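RNA from THP-1 macrophages was measured on 3 Agilent 1-color arrays, 1 per condition, with Cy3-labeled RNA and probes designed on hg19. Per the file headers, the scanner signal was produced with Feature Extraction 10.5.1.1. The authors deposited the processed intensity of each spot and a table of raw intensity and quantile-normalized intensity for each probe, and the normalized intensity was used here. The raw intensity matched the scanner value to within 0.1% for each of the 57901 probes printed in 1 spot, and for 211 of the 300 probes with 10 spots (INHBA among them), whose mean was taken. The technical SD rests on the scanner values of the spots, not on that table. Their enrichment tests of gene sets were not used.

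Control spots were left out. Differences of log2 values were taken between single arrays with Python 3.11.15, numpy 2.4.6, and pandas 2.3.3, and a probe counted as higher or lower at 2-fold or more. The brighter array of a comparison had to be well above background for a probe to enter. A dim value below the lowest intensity that the scanner software rated well above background was raised to that floor (16.5 in Ctrl, 23.8 in IMQ, and 16.9 in IMQ+X), so that its fold is a lower bound. The number of arrays limits the precision, and no p-value was computed. The technical SD came from 300 probes with 10 spots, in bins of 1 log2 unit, and covers noise within an array only. It is that of a difference between 2 single spots. No bin was available between log2 4 and 5. Values there took the SD of the bin from 3 to 4 (0.66), not that from 5 to 6 (0.27). The steps were tested on simulated data.

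All 10 genes were named. Of the 102 other genes, those 2-fold different in any comparison were named, and up to 2 with the highest mean intensity of a list where fewer were. The genes, lists, and thresholds were chosen with earlier results of these data known. As alternatives, the arrays were scaled to their 75th percentile or to 10 spike-in probes or left unscaled, and the settings were further changed to normexp (offset 50) with limma 3.58.1 in R 4.3.3, quantile normalization without outlier-marked spots, stricter and no filters, thresholds of 1.5-fold and 4-fold, and the mean of all probes of a gene. The normexp offset shrinks the differences of dim probes. Markers not analysed here were CD68, LYZ, and HBA1. Promoters were matched by symbol to RefSeq windows, with 9 of 10 genes found.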

Additional observations from a re-analysis of the deposited data

How the results depend on the processing

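No paired analysis was possible because each condition has 1 array, and for the same reason no replicate could be left out. All arrays lie on the same slide, so a slide effect could not be fitted. Over the 5 alternatives that can move a probe of the 10 genes, the 17 differences of at least 2-fold kept their sign in all 85 values. Of 65 values of the 13 smaller differences, 58 did, and the 7 others were of GDF15, TGFB1, and SMAD7 between IMQ+X and IMQ, from -0.08 to 0.00. The unscaled, 75th percentile, and spike-in values differ only by a constant per comparison, so these values are not separate checks. Without normalization between arrays and with spike-in scaling, 3 genes exceeded Ctrl by at least 2-fold after IMQ, 3 were higher in IMQ+X than in Ctrl, and 0 were lower in IMQ+X than in IMQ. Of all probes, 732 and 809 exceeded Ctrl after IMQ, 674 and 777 were higher in IMQ+X than in Ctrl, and 233 and 230 were lower in IMQ+X than in IMQ. The median of all probes for IMQ against Ctrl was -0.51 and -0.44 under these scalings, and that of the 10 genes for IMQ+X against Ctrl was -0.02 without normalization. Without normalization, 11 of the other pathway genes were higher and 15 lower after IMQ, and 9 and 14 in IMQ+X against Ctrl. Of all probes, 732 were then higher and 6668 lower after IMQ, and 674 and 4511 in IMQ+X against Ctrl. With normexp, 1 gene was lower after IMQ than in Ctrl, 2 were lower in IMQ+X than in Ctrl, and 0 were lower in IMQ+X than in IMQ, beside 712, 982, and 40 of all probes. At 1.5-fold, 3 genes were lower in IMQ+X than in IMQ (INHBA, TGFB2, and TGFB3), beside 2442 of all 40829 compared probes. At 4-fold, 3 genes were higher after IMQ than in Ctrl (INHBA, BMP6, and SKIL), 2 in IMQ+X than in Ctrl (INHBA and BMP6), and 0 were lower in any comparison. Of all probes, 368 were 4-fold higher after IMQ than in Ctrl and 271 in IMQ+X than in Ctrl. Lower by 4-fold were 135 for IMQ against Ctrl, 41 for IMQ+X against IMQ, and 278 for IMQ+X against Ctrl. The causes of these shifts were not tested. Scaling to the 75th percentile left the counts of the 10 genes as they were, but the gene lower in IMQ+X than in IMQ was then INHBA (-1.02) and not TGFB2 (-0.70). Without outlier-marked spots the same genes were called, and the filters on dim probes could not change a call, since all 10 probes were above background on every array. Dim signal limits TGFB2, INHBB, FST, and SOST, whose differences were near or within 2 technical SDs. For these genes the limit of 1.42 rests on the SD of dimmer spots, so this reading is uncertain.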

Other observations

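HAMP, a target gene outside the rule for named genes, was looked at after its values were seen. It encodes hepcidin, the hormone that BMP6 raises in the liver, and had an intensity of 1684 in Ctrl, 1779.6 after IMQ, and 2931 after IMQ+X, with a log2 difference of 0.08 for IMQ against Ctrl and 0.72 for IMQ+X against IMQ. It reached 2-fold in no comparison. Of the ligand BMP8B, 1 probe differed by 0.17 between IMQ and Ctrl and the other by -1.18, so the probes of this gene disagreed.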
